A study of Mus musculus with 5 samples.

Results

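Rian and Plagl1, 2 imprinted genes of 1457 genes analysed, were followed across 5 RNA sequencing libraries from mouse pancreas. They were chosen by their signal values in these libraries, which rise and fall together with large steps among the caerulein libraries, high in wild-type replicate 2 and knockout replicate 1 and low in wild-type replicate 1 and knockout replicate 3. All 5 values of both genes entered that choice, so their levels are given as a description and carry no p-value. Female C57BL/6 mice aged 8 weeks were wild type or lacked the microRNA miR-21 (miR-21-/-). Caerulein, an analogue of cholecystokinin that causes acute pancreatitis on repeated injection, was given at 50 µg/kg to the wild type (replicates 1 and 2) and to the knockout (replicates 1 and 3), with 2 libraries each, and pancreas was taken 24 h after the first injection. The third group was 1 library from a wild-type mouse given saline, and no miR-21-/- saline library was analysed. The labels do not say how the miR-21 allele was made, in which cells it is missing, or whether the libraries come from different mice. Where they do not, the spread between them is technical.

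Imprinted genes are expressed mainly from the chromosome inherited from one parent. Rian, also called Meg8, is a long non-coding RNA expressed from the maternal chromosome in the Dlk1-Dio3 domain, together with the non-coding RNAs Meg3 and Mirg, and its primary transcript carries C/D box small nucleolar RNAs and microRNAs. Plagl1, also called Zac1, is expressed from the paternal chromosome and encodes a zinc finger transcription factor that restrains cell division and can induce apoptosis. Its human counterpart is known in the pancreas because overexpression from its locus causes transient neonatal diabetes, and PLAGL1 has been placed in a network of co-regulated imprinted genes that includes members of the Dlk1-Dio3 domain.

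The promoter windows of both genes, from 250 bases before to 50 bases after the RefSeq start (GRCm38.p6, plus strand), are shown because the genes move together across the libraries while their start regions differ in composition. Capitals mark CG dinucleotides, the sites of DNA methylation.
Rian, chr12:109603695-109603994: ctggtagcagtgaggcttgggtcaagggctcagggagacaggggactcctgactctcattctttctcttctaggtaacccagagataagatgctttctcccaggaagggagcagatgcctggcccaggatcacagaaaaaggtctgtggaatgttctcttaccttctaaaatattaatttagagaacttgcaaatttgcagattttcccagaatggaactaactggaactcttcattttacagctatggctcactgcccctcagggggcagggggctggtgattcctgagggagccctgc
Plagl1, chr10:13090582-13090881: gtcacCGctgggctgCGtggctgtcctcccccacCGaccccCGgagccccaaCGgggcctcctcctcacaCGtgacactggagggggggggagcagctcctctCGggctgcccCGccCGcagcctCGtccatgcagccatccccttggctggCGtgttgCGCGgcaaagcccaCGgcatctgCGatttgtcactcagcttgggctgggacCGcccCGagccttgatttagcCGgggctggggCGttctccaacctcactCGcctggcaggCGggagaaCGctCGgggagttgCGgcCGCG
The Rian window held 0 CG dinucleotides, whereas 94.6% of 32851 RefSeq promoter windows of the same length held more than that, and its G and C content was 49.3%. The Plagl1 window held 26 CG dinucleotides, more than 83.1% of these windows, at a G and C content of 70.7% (medians over all windows 7 and 52.7%). On both strands the Plagl1 window had 2 matches to the Sp1 GC box GGGCGG, where 19.5% of windows had at least 2 and 35.7% at least 1. It had 1 match to GGGGCC, a core of the GC-rich element bound by PLAGL1, present in 25.0%. The Rian window matched neither, and with 0 CG dinucleotides it could not match GGGCGG. No match to CCAAT (37.4%), to TATAAA (13.6%) or to the AP-1 letters TGANTCA (7.8%) was found in either window. Matches of different motifs were allowed to overlap. A match is only a run of letters. GENCODE M21 also lists a Plagl1 transcript that starts upstream of the Plagl1 window. The Rian window lies within the RefSeq span of Rtl1. Whether transcription of either gene starts in its window was not measured, so the windows describe annotated starts only.

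Because the knockout lacks miR-21, the longest GENCODE M21 transcript of each gene was searched for the letters that pair with the miR-21 seed (bases 2 to 8, in capitals in the RefSeq sequence; the 7 paired bases are in capitals in the transcripts).
mmu-miR-21a-5p: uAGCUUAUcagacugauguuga
Rian transcript, position 3049: gagccccctaATAAGCTgcttcagatt
Rian transcript, position 6226: attattaggaATAAGCTacagttagat
Rian transcript, position 6555: tcacttggatATAAGCTccattttgct
Plagl1 transcript, position 695: gtctccaagtATAAGCTgatgagacac
The 8089-base Rian transcript had 3 matches, and at least 3 were present in 1.1% of the 721 genes whose longest transcript was within 10% of that length. The 5260-base Plagl1 transcript had 1 match, in its coding sequence, and 21.0% of 1983 genes of similar length had at least 1. Whether miR-21 acts at any of these letters was not measured.

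The deposited values have no stated unit and are called signal values here. Depth is unknown and no interval for counting error can be given. The values of all 1457 genes summed to 2818 in saline and to 38628, 23255, 32770 and 34393 in wild-type replicates 1 and 2 and knockout replicates 1 and 3. Saline held 540 genes at the lowest value, 0.01, against 31 to 89 in the caerulein libraries, and for every gene the largest fold change of a caerulein library against saline was 2.528 or more, so the table appears to hold genes chosen for that difference. No microRNA gene was among those analysed, which leaves the deletion unchecked, and of 25 acinar marker genes 4 were analysed, Prss1, Prss3, Klk1 and Cckar.

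Rian had a signal value of 10.25 in saline, 20.02 in wild-type caerulein replicate 1, 350.02 in wild-type replicate 2, 147.13 in knockout replicate 1 and 26.72 in knockout replicate 3. All 4 caerulein values lay above saline, as for 85.9% of all genes (all 4 lay below for 2.13%), but 2 of them were near it and 2 far above. The value was 34.15 times that of saline in wild-type replicate 2 and 14.35 times in knockout replicate 1, against 1.95 times in wild-type replicate 1 and 2.61 times in knockout replicate 3. The wild-type mean was 185.0 ± 233.3 (SD, n = 2) and the knockout mean 86.9 ± 85.1 (SD, n = 2), each SD being close to or above its mean.

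Plagl1 was listed at 0.01 in saline, the lowest value, so no fold against saline is given. It was 10.45 in wild-type caerulein replicate 1, 46.46 in wild-type replicate 2, 70.32 in knockout replicate 1 and 7.58 in knockout replicate 3. Its higher and lower libraries are thus the same as for Rian, although the order within each pair is reversed in the values as deposited. With median-ratio scaling the Plagl1 values within each pair were nearly level, at 64.34 and 62.81 in wild-type replicate 2 and knockout replicate 1 and 7.742 and 7.761 in wild-type replicate 1 and knockout replicate 3. As deposited, Rian was highest in wild-type replicate 2 and Plagl1 in knockout replicate 1, and of the lower pair Rian was lowest in wild-type replicate 1 and Plagl1 in knockout replicate 3. The Plagl1 mean was 28.5 ± 25.5 in the wild type and 38.9 ± 44.4 in the knockout (SD, n = 2 each).

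**Figure D1:**
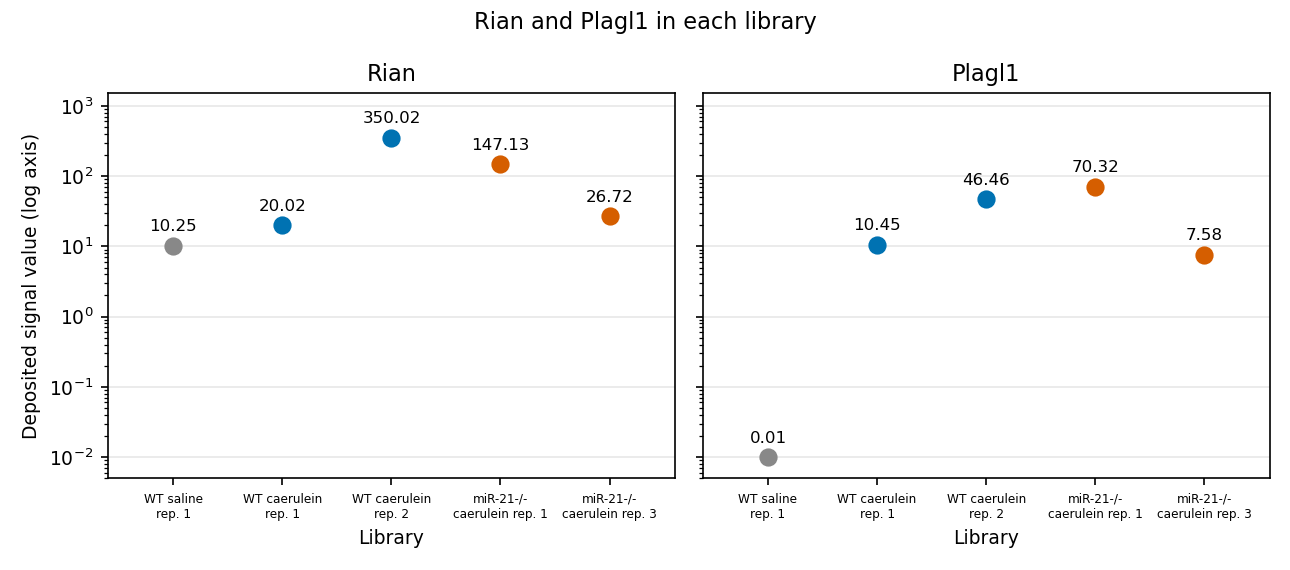
Signal value of Rian (left) and Plagl1 (right) in each of the 5 libraries, on a log axis, with grey for wild-type saline, blue for wild-type caerulein and orange for miR-21-/- caerulein. Each point is 1 library; for both genes wild-type replicate 2 and knockout replicate 1 stand above the other caerulein libraries, and Plagl1 in saline is at the lowest value of 0.01.

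The comparison of knockout with wild type after caerulein asks how transcript levels differ without miR-21 once pancreatitis has been induced. For Rian the log2(value + 1) level was 6.42 ± 2.87 in the wild type and 6.00 ± 1.71 in the knockout (SD, n = 2 each), a log2 difference of −0.42, and for Plagl1 it was 4.54 ± 1.45 and 4.63 ± 2.16, a difference of 0.09. Both differences were far smaller than the SD within a genotype, and the groups overlapped, which the way these genes were chosen brings with it. Leaving out 1 library turned the sign of each. The Rian difference was 1.61 without wild-type replicate 2 and 0.79 without knockout replicate 3, and that of Plagl1 −0.94 without wild-type replicate 1 and −1.44 without knockout replicate 1. The Plagl1 difference was also −0.03 with equal library sums (set without the 20 most abundant genes) and −0.02 with median-ratio scaling. Over the whole table limma called 0 of 1429 tested genes higher and 0 lower in the knockout (0.0% each; 7 at an unadjusted p under 0.05, and 4 higher without wild-type replicate 1). The fit shrinks each gene's spread towards that of genes at similar levels, and for these 2 genes it used a library SD of 0.96 (Rian) and 0.86 (Plagl1) where their own were 2.36 and 1.84. Its 95% intervals for the difference, −2.30 to 1.46 for Rian and −1.61 to 1.78 for Plagl1, therefore understate their error. Both knockout values lay above both wild-type values for 4.74% of 1457 genes and below them for 4.53%.

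Within each genotype the replicates differed by a large factor. Rian was 17.48 times higher in wild-type replicate 2 than in replicate 1, and 5.51 times higher in knockout replicate 1 than in replicate 3. The corresponding ratios for Plagl1 were 4.45 and 9.28. Between genotypes the similar libraries were closer. Rian in knockout replicate 1 was 0.42 times its level in wild-type replicate 2, and in knockout replicate 3 it was 1.33 times that in wild-type replicate 1. For Plagl1 these ratios were 1.51 and 0.73. The pooled SD within a genotype on the log2(value + 1) scale was 2.36 for Rian, exceeded by 21 of 1429 genes, and 1.84 for Plagl1, exceeded by 105, against a median of 0.79.

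**Figure D2:**
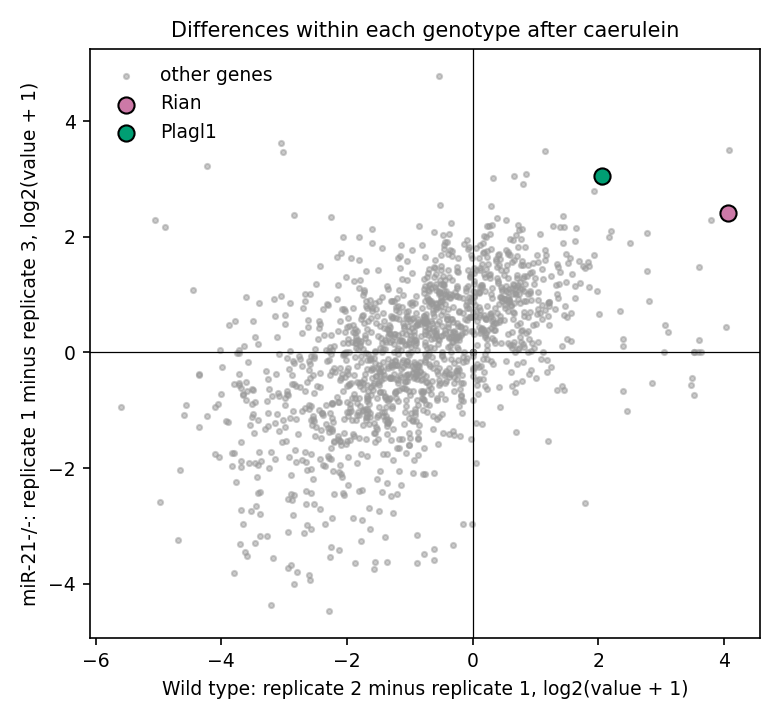
Difference within each genotype for every gene, as log2(value + 1) of wild-type replicate 2 minus replicate 1 on the horizontal axis and of knockout replicate 1 minus replicate 3 on the vertical axis. Each grey point is 1 of 1457 genes; Rian lies at 4.06 and 2.42 and Plagl1 at 2.05 and 3.06, both at the upper right edge of the cloud.

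The shared order of the libraries was not rare. Wild-type replicate 2 and knockout replicate 1 both exceeded wild-type replicate 1 and knockout replicate 3 for 283 of 1457 genes (19.4%), and the opposite order held for 573 genes (39.3%). The excess of the opposite order depended on scaling. The counts were 461 and 445 with quantile normalization, where the excess turned, 438 and 500 with median-ratio scaling and 415 and 518 with equal library sums. Counts of order in the gene lists below use the unscaled values. What sets Rian and Plagl1 apart within the 283, by the choice made, is the size of the gap. The lower value of the higher pair was 5.51 times the higher value of the lower pair for Rian and 4.45 times for Plagl1, ranks 3 and 5 of 283, where the median was 1.42. For either gene, 1 other gene differed by at least as much within both genotypes. The 2 libraries high for Rian and Plagl1 have the lower sums of values and the more genes at 0.01 (89 and 41, against 34 and 31). The gap remained with each rescaling tried, at log2 2.26 to 2.40 for Rian (2.46 unscaled) and 2.82 to 3.02 for Plagl1 (2.15 unscaled). The median-ratio factors lay between 0.722 and 1.35, so that scaling could not have removed gaps of this size. The part of library scale in the pattern was not tested.

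Against saline, the position of Rian among the other genes changed from library to library. Its log2(value + 1) difference from saline was 0.90 in wild-type replicate 1, where the median gene differed by 3.16, and 1.30 in knockout replicate 3, where the median was 2.74. Only 5.3% and 9.8% of genes had a smaller difference in these libraries. In wild-type replicate 2 the Rian difference was 4.96 against a median of 2.30, larger than for 98.2% of genes, and in knockout replicate 1 it was 3.72 against 2.84, larger than for 78.4%. Rian therefore stood above saline by less than most genes in 2 libraries and by more than most in the other 2. With equal library sums or quantile normalization, which bring the saline library up to the others, Rian fell below saline in wild-type replicate 1 (log2 differences −2.62 and −1.98) and knockout replicate 3 (−1.98 and −1.27) and stayed above it in wild-type replicate 2 (2.08 and 2.81) and knockout replicate 1 (0.37 and 0.95).

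The Plagl1 differences from saline were 3.50 and 3.09 in wild-type replicate 1 and knockout replicate 3, close to the medians of 3.16 and 2.74. They were 5.55 and 6.14 in wild-type replicate 2 and knockout replicate 1, each larger than for 99.5% of genes. Averaged over replicates, the fitted log2 difference from saline was 4.53 in the wild type and 4.61 in the knockout for Plagl1, and 2.93 and 2.51 for Rian. The table medians were 2.71 and 2.80. These comparisons share the 1 saline library. With equal library sums the Rian averages were −0.27 and −0.81 and those of Plagl1 4.24 and 4.21. With quantile normalization they were 0.41 and −0.16 for Rian and 1.90 and 1.99 for Plagl1, whose difference in wild-type replicate 1 and knockout replicate 3 was then only 0.47 and 0.52, against 3.32 and 3.46 in wild-type replicate 2 and knockout replicate 1.

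**Figure D3:**
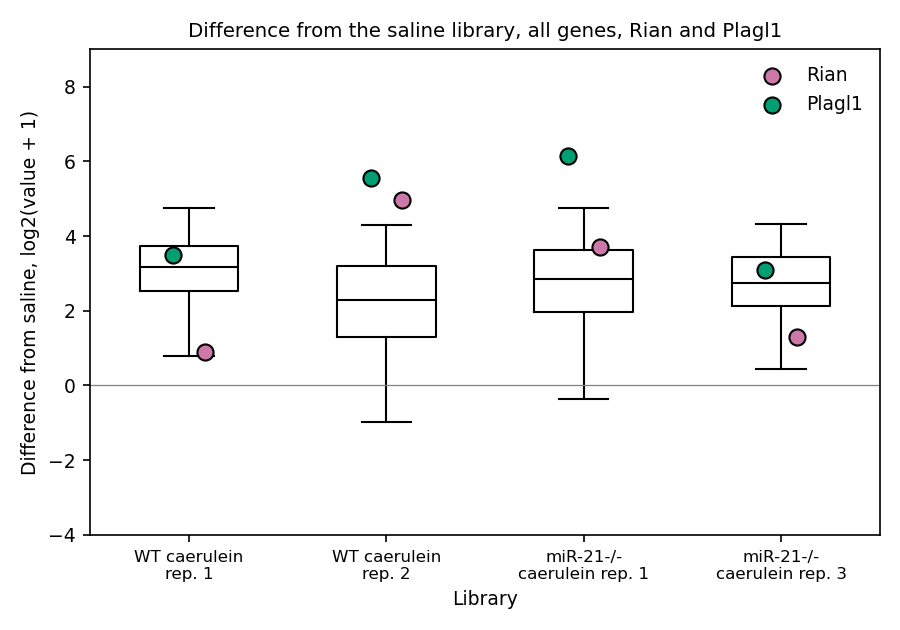
Difference from the saline library on the log2(value + 1) scale in each caerulein library. Boxes span the 25th to 75th percentile of 1457 genes with the median as a line, whiskers reach the 5th and 95th percentiles, and the coloured points are Rian and Plagl1; Rian lies below the box in wild-type replicate 1 and knockout replicate 3 and above the median in the others, and Plagl1 lies above the upper whisker in wild-type replicate 2 and knockout replicate 1.

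Of 93 symbols listed for imprinted genes, some of them older names, 8 were analysed, Rian and Plagl1 among them. The other 6 are H19, a maternally expressed non-coding RNA, Grb10, an adaptor that restrains insulin and growth factor signalling, Sgce, a sarcoglycan, Kcnq1, a potassium channel subunit, Nap1l4, a nucleosome assembly protein, and Qk, an RNA-binding protein. Their imprinting is limited to certain tissues for some. Limma called 5 of these 6 higher than saline in the wild type, where 57.3% of all tested genes were called higher, and 5 of 6 in the knockout, where 60.3% were (0.0% and 0.14% of tested genes were called lower). Because the table appears to hold genes chosen for their difference from saline, these calls are a description. The same holds for all limma calls and p-values against saline given below. These calls also depend on scaling and on single libraries. With quantile normalization 0 genes of the table were called higher in either genotype, and without knockout replicate 1 the calls in the knockout fell to 29. Their median log2 differences were 2.81 and 2.86, against 2.71 and 2.80 for all tested genes. Between knockout and wild type 0 of 6 were called, with a median of −0.10 against 0.10 for all.

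H19 was 0.29 in saline and 19.95, 16.74, 16.87 and 16.07 in wild-type replicates 1 and 2 and knockout replicates 1 and 3, nearly level across the caerulein libraries (log2 difference 3.90, SE 1.02, in the wild type, limma adjusted p = 0.00158). Grb10 was 1.39 in saline and 47.04, 29.12, 32.88 and 38.8 in the same order, so that its higher libraries were the lower ones of Rian and Plagl1. Sgce was 1.84 in saline and 16.33, 17.74, 34.82 and 15.37, and Kcnq1 1.01 and 11.49, 18.52, 14.73 and 8.74. Both followed the order of Rian and Plagl1, with smaller steps, which for Sgce lay mainly between the knockout libraries. Nap1l4 (2.18 in saline, then 30.19, 10.18, 17.77 and 16.68) did not, and Qk (0.81, then 10.72, 4.8, 5.85 and 6.10) had the opposite order and was the 1 gene of the 6 that did not pass against saline in either genotype (limma adjusted p = 0.0891 and 0.127). Of the 28 symbols of the imprinted gene network linked to PLAGL1, H19, Grb10 and Sgce were the others analysed. Limma called all 3 higher than saline in both genotypes, beside 57.3% (wild type) and 60.3% (knockout) of all tested genes. In sum 2 of the 6 other imprinted genes shared the order of Rian and Plagl1 and 2 had the opposite one, where the shares over all genes, also unscaled, were 19.4% and 39.3%.

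**Figure D4:**
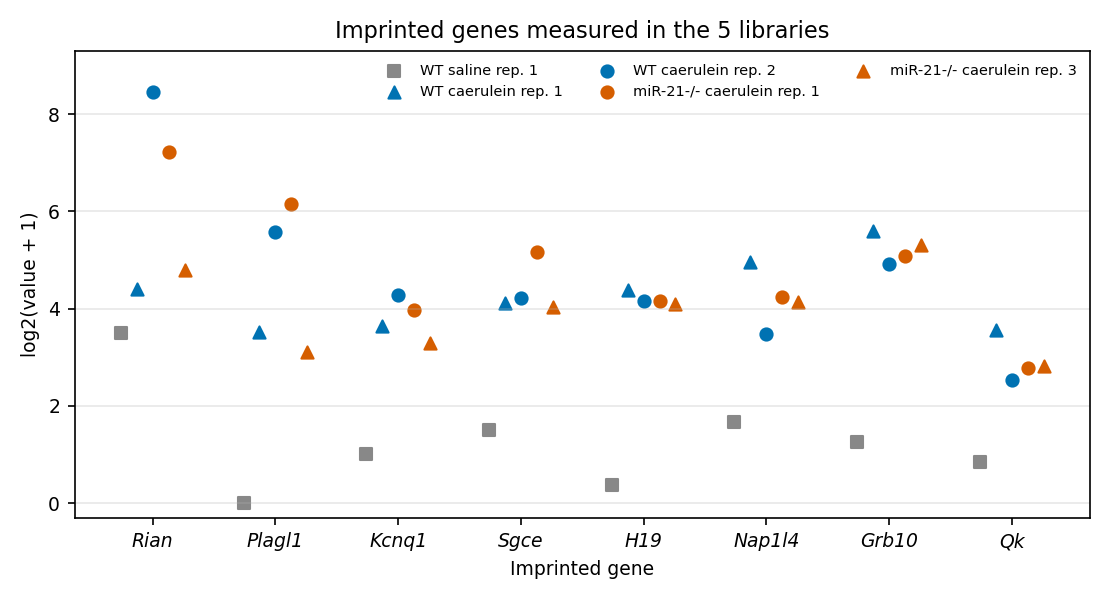
Level of the 8 imprinted genes in each library as log2(value + 1). Squares are saline, circles wild-type replicate 2 and knockout replicate 1, triangles wild-type replicate 1 and knockout replicate 3. Blue marks wild-type and orange miR-21-/- caerulein. Circles stand well above triangles for Rian and Plagl1, by less for Kcnq1 and Sgce (for Sgce mainly in the knockout), and below them for Grb10 and Qk.

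The genes next to Rian and Plagl1 gave little to set beside them. Of 18 symbols of the Dlk1-Dio3 domain and its flanks only Ppp2r5c, a regulatory subunit of protein phosphatase 2A, and Hsp90aa1, a heat shock chaperone, were analysed besides Rian. Meg3, Mirg, Dlk1 and Dio3 were not analysed here. Ppp2r5c was listed at 0.01 in saline and was 33.26, 24.21, 34.45 and 16.52 in wild-type replicates 1 and 2 and knockout replicates 1 and 3, and Hsp90aa1 was 0.01 and then 24.65, 14.46, 20.10 and 13.56. Both rose against saline in both genotypes (log2 differences 4.86 and 4.62 for Ppp2r5c, 4.30 and 4.12 for Hsp90aa1), as 57.3% and 60.3% of all tested genes did, and neither shared the order of Rian. Of 15 symbols near Plagl1 or in its family, Aig1 was the other analysed, at 0.01 in saline and then 12.38, 3.54, 3.0 and 10.65, the opposite order, and it did not pass against saline (log2 differences 2.95 and 2.76, limma adjusted p = 0.0636 and 0.0782). In RefSeq the first part of Rian overlaps the protein-coding gene Rtl1, and the first part of Plagl1 overlaps the non-coding RNA Hymai. GENCODE places 4 microRNA genes in introns of Rian and 13 small nucleolar RNA genes within it, 8 of them overlapping exons. Reads from such overlapping genes cannot be told apart here, because the counting and its use of strand are not given in the sources used.

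Published work also links PLAGL1 to collagen and other extracellular matrix genes. Of 22 candidate target symbols outside imprinting 8 were analysed, and limma called 7 of the 8 higher than saline in each genotype, with median log2 differences of 4.36 in the wild type and 3.65 in the knockout (all tested genes 2.71 and 2.80, with 57.3% and 60.3% called higher). Between knockout and wild type 0 of 8 were called. Col3a1, a fibrillar collagen, was 525.1 and 271.09 in wild-type replicate 1 and knockout replicate 3 and 50.15 and 73.25 in wild-type replicate 2 and knockout replicate 1, the reverse of Plagl1. Fbn1, which encodes fibrillin, was 39.78 and 8.50 against 3.23 and 4.28, and Col5a2 70.38 and 41.07 against 22.17 and 26.87. Col6a1 also had this order, at 8.15 and 10.28 against 6.47 and 6.80, whereas Postn, Fn1 and Col6a3 had neither order. Tcf4, a basic helix-loop-helix transcription factor, was the 1 gene of the 8 with the order of Plagl1, at 10.12 and 5.93 against 17.79 and 13.93. Thus 1 of 8 had the order of Plagl1 and 4 of 8 the opposite one, beside 19.4% and 39.3% of all genes. Col6a3 was the gene that did not pass against saline (limma adjusted p = 0.118 and 0.279). All but Tcf4 are also among the fibroblast markers below.

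Among 35 long non-coding RNA symbols, H19, Malat1 and Xist were analysed besides Rian. Malat1, an abundant nuclear RNA, was 12.91 in saline and 308.92, 96.37, 175.28 and 277.46 in wild-type replicates 1 and 2 and knockout replicates 1 and 3, the opposite order to Rian, and Xist, which coats the silenced X chromosome, was 0.01 and then 28.07, 8.43, 2.24 and 4.38. Limma called 3 of these 3 RNAs higher than saline in the wild type and 2 of 3 in the knockout, where Xist did not pass (log2 difference 2.05, adjusted p = 0.127), beside 57.3% and 60.3% of all tested genes. Of 27 growth arrest and p53 pathway symbols, Btg1, an antiproliferative protein, Ccnd3, a cyclin, and Mdm4, a p53 inhibitor, were analysed. Btg1 was 4.08 in saline and then 54.15, 9.97, 14.59 and 28.42, Ccnd3 2.20 and 14.72, 2.25, 6.73 and 9.17, and Mdm4 1.21 and 12.03, 4.94, 6.09 and 7.62. All 3 had the opposite order to Plagl1, which 39.3% of all genes had. Limma called 0 of 3 in each of the 3 comparisons, where 57.3% (wild type) and 60.3% (knockout) of tested genes were called higher than saline and 0.0% differed between knockout and wild type (medians against saline 1.99 and 1.82, below those of all tested genes; unadjusted p from 0.0307 to 0.270 in the wild type and from 0.0487 to 0.161 in the knockout, so 1 of 3 was under 0.05 in each).

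Markers of several cell types had the order of the 2 genes or the opposite one, which 19.4% and 39.3% of all genes had. In whole tissue fewer cells of a type and less RNA per cell cannot be told apart. Of 24 stellate cell and fibroblast markers 11 were analysed, 7 of them in the opposite order to Rian and Plagl1 and 0 in the same order. Their summed values were 903.0 (wild-type replicate 1) and 414.4 (knockout replicate 3) against 164.8 (wild-type replicate 2) and 194.7 (knockout replicate 1). Col3a1 alone made up 525.1 and 271.09 against 50.15 and 73.25 of these sums. Fn1 and Thbs1, with neither order, were lowest among the caerulein libraries in knockout replicate 3, at 8.08 and 5.34. Acinar markers, 4 of 25 analysed and 3 in the opposite order, summed to 983.4 and 636.2 against 38.5 and 315.0, and to 11.3 in saline. Of these sums Klk1 made up 562.8 and 303.03 against 22.23 and 141.85, and Prss3 384.9 and 289.84 against 6.97 and 150.18. Prss1 was at 0.01 in saline and in both wild-type caerulein libraries, and 6.5 and 12.28 in knockout replicates 1 and 3. In the order of Rian and Plagl1 were Vwf, the 1 endothelial marker of 15 analysed, at 10.15 and 15.25 against 22.93 and 27.77, and Csf3r, a neutrophil receptor and the 1 of 14 neutrophil markers analysed, at 8.09 and 6.69 against 21.82 and 16.26. Macrophage markers, 8 of 24, had 2 in each order, with sums between 311.7 and 432.7 in the caerulein libraries. Laptm5 alone made up 167.2, 207.34, 213.33 and 180.11 of these sums in wild-type replicates 1 and 2 and knockout replicates 1 and 3. Emr1, Mrc1 and Cd163, with neither order, were 57.43, 41.08 and 13.38 in wild-type replicate 1 and 9.27, 2.94 and 0.62 in replicate 2. Mpeg1, Ctss and Lyz1 were also lower in wild-type replicate 2 than in replicate 1, and Laptm5 and Ly6c2 were higher. Of 23 islet markers 2 were analysed, with neither order. Pcsk2, a prohormone convertase, was 15.59 in saline and 9.70, 9.73, 40.83 and 21.71 in wild-type replicates 1 and 2 and knockout replicates 1 and 3, and Slc2a2, a glucose transporter, was 10.32 and then 1.01, 0.01, 1.13 and 4.92. Lymphocyte markers, 3 of 17, had neither order and summed to 69.0, 6.8, 58.3 and 6.2 in that sequence of libraries. The single ductal marker of 14, Krt8, and the single red blood cell marker of 9, Hbb-b2, had the opposite order, and 0 of 12 nerve markers were analysed. The part of cell composition in the pattern of Rian and Plagl1 was not tested.

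The genes most like each of the 2 were ranked by Pearson's r of log2(value + 1) over the 5 libraries, as a description without a test. With 5 points that share 1 saline library, high values are common. Rian and Plagl1 correlated with each other at r = 0.88, which placed Plagl1 at rank 39 among 1428 genes for likeness to Rian and Rian at rank 337 for likeness to Plagl1. Their 10 closest genes shared 0 names. All 20 had the same order of caerulein libraries as Rian and Plagl1, which 19.4% of all genes had. A ranking by r over these same libraries favours genes with that order.

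Closest to Rian (r from 0.938 to 0.990) were Ttbk2, a kinase needed to form cilia, Lgi3, a secreted leucine-rich repeat protein, Ddx18, an RNA helicase, Fnip2, a folliculin partner, Chtf8, Rfng, a glycosyltransferase that modifies Notch receptors, Col13a1, a transmembrane collagen, Supt7l, a subunit of the SAGA coactivator, Cyr61, a matricellular protein, and Cwf19l1. Ttbk2 was 0.01 in saline and 0.35, 15.44, 6.26 and 1.60 in wild-type replicates 1 and 2 and knockout replicates 1 and 3, so that like Rian it peaked in wild-type replicate 2. Rfng was 0.01 and then 0.97, 32.39, 41.74 and 2.75. Ddx18 kept a measurable level in every library, at 1.69 in saline and then 5.28, 23.00, 14.89 and 3.93.

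Among the 10 genes closest to Plagl1 (r from 0.992 to 0.998) were Aldoart1, a retrogene copy of aldolase A, B230206H07Rik, Gpkow, a spliceosome protein, Ppard, a nuclear receptor, Med24, a Mediator subunit, Dctn1, of the dynactin complex, Tgtp2, an interferon-induced GTPase, Drosha, the nuclease that starts microRNA maturation, and Zcchc11, which adds uridines to microRNA precursors. Aldoart1 was 0.01 in saline and 15.43, 66.62, 84.99 and 10.12 in wild-type replicates 1 and 2 and knockout replicates 1 and 3, close to Plagl1 in shape and in size of step. Reads of this retrogene and of Tgtp2 may be shared with near-identical copies, so their values are uncertain. Drosha was 2.92 and then 8.80, 18.31, 17.49 and 7.14, the same shape with smaller steps. These names depended on the measure. By the root mean square difference of centred values, which also weighs the size of the steps, 8 of the 10 remained for Rian and 1 of 10 for Plagl1, and with quantile normalization 3 and 1 did.

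**Figure D5:**
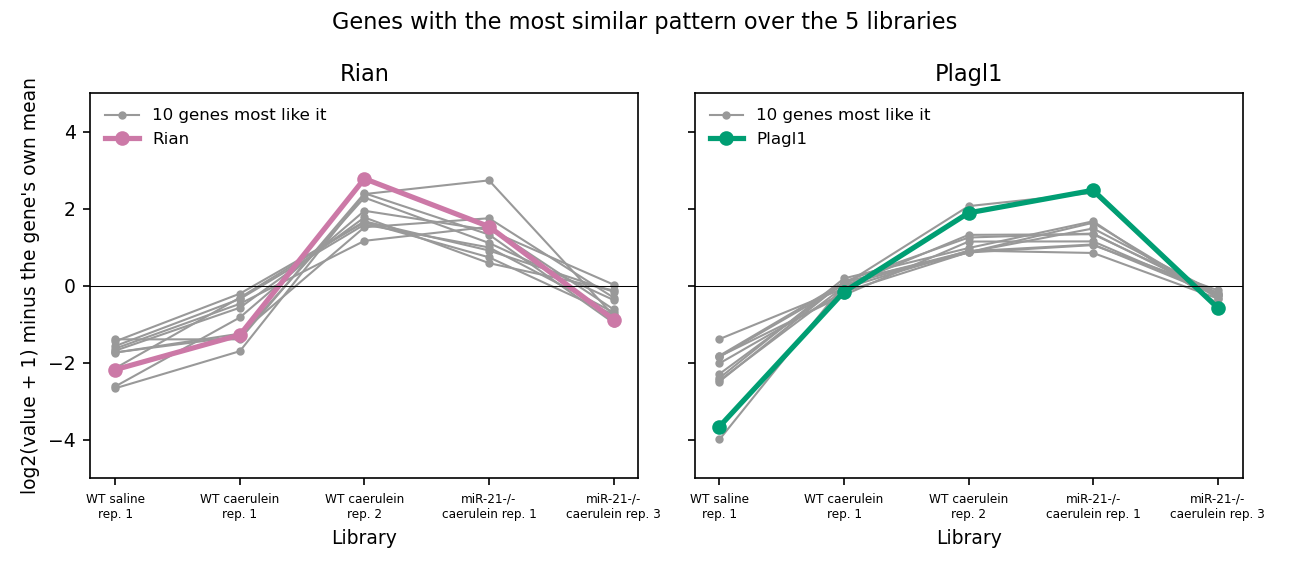
Level of Rian (left) and Plagl1 (right) and of the 10 genes most like each (grey), as log2(value + 1) minus the gene's own mean over the 5 libraries. Each point is 1 library; all lines are low in saline and highest in wild-type replicate 2 or knockout replicate 1, and only Rfng spans a wider range than Rian and only Aldoart1 a wider range than Plagl1.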

How the data were processed

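Per the labels' protocols, Poly(A) RNA of pancreas was fragmented, reverse transcribed from random primers and read by Illumina sequencing. Bowtie 0.12.2 and build mm8 are named in the submitters' processing notes, and for counting, annotation and normalization no description was at hand. The files, as deposited, hold 1 signal value per gene symbol, with no stated unit, and 1 blank row each, left out here. Low values showed no common step (87 distinct values among 342 saline genes between 0.01 and 1), so depth is unknown and counts were not used. Genes reaching 1 in 2 or more libraries (1429 of 1457, Rian and Plagl1 included) were fitted as log2(value + 1), which understates the change of low genes, by limma 3.58.1 (R 4.3.3) with a mean for each of the 3 groups, trended robust variance and Benjamini-Hochberg adjustment at 0.05. Each gene's own variance rests on 2 residual degrees of freedom from the caerulein libraries, and saline is assumed to vary alike. For most genes named here the fit replaced it by the spread of genes at similar levels (2858 total degrees of freedom). For H19 it used a library SD of 0.84 where its own was 0.12. The SEs and p-values of such genes thus measure mainly the spread of other genes. Scripts were tested on simulated data. Genes named are Rian, Plagl1, the 10 genes most like each, and the analysed members of 7 gene lists and, by their sums, 10 marker lists. Of the genes most like Plagl1, 1 is not reported by name here. The genes, the lists and the tests were chosen with earlier results of these data known. Promoter and microRNA sequences come from RefSeq (GRCm38.p6), where both genes matched by symbol, and transcripts from GENCODE M21, newer builds than mm8. Alternatives were 3 scalings, filters, a pseudocount of 0.1, variance settings and leaving out each caerulein library. Equal sums were set without the 20 most abundant genes. Python 3.11.15 was used for the rest.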

Additional observations from a re-analysis of the deposited data

How the results depend on the processing

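No paired analysis was possible because the wild-type and knockout caerulein groups share only replicate number 1. Rescaling the gap of the 2 genes was chosen after seeing the data. With 1 library left out, the knockout minus wild-type log2 difference of Rian lay between −2.45 and 1.61 (1.61 without wild-type replicate 2, 0.79 without knockout replicate 3), and that of Plagl1 between −1.44 and 1.61 (−0.94 without wild-type replicate 1, −1.44 without knockout replicate 1; −0.03 with equal sums and −0.02 with median-ratio scaling). Against saline, Rian turned to −0.27 (wild type) and −0.81 (knockout) with equal sums and to −0.16 (knockout) with quantile normalization. Between knockout and wild type, leaving out 1 library gave 0 to 4 called genes, 4 without wild-type replicate 1. For wild type against saline the 819 calls became 7 (all lower) with quantile normalization, 267 (235 higher, 32 lower) with equal sums and 440 when the fit held just those groups. Leaving out 1 library gave 377 to 1080 (wild-type replicate 1 out, 511; knockout replicate 1 out, 377; knockout replicate 3 out, 509). For knockout against saline 863 became 4 (all lower), 241 (219 higher, 22 lower) and, with a library left out, 29 to 1028 (29 and 399 without knockout replicates 1 and 3). The median log2 difference from saline, 2.71 in the wild type and 2.80 in the knockout, was 0.06 and 0.08 with quantile normalization and 0.82 and 0.85 with equal sums. The 283 genes in the order of Rian and Plagl1 became 461 with quantile normalization, 438 with median-ratio scaling and 185 among genes above 0.01 in all libraries, and the 573 in the opposite order became 445, 500 and, in that subset, where fewer genes were counted, 360. With equal sums the counts were 415 and 518. The cause of the other changes was not tested. The unknown unit and depth limit all values near 0.01.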

Other observations

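The genes with gaps nearest in size to those of Rian and Plagl1, named after their values were seen, were of varied function. Larger gaps between the lower value of wild-type replicate 2 and knockout replicate 1 and the higher value of wild-type replicate 1 and knockout replicate 3 were those of Lgi3 (15.75-fold, with 0.01 in wild-type replicate 1 and 0.36 in knockout replicate 3) and Rfng (11.78-fold). Col13a1, a transmembrane collagen, had a gap of 5.03-fold, at 8.66 and 10.36 against 0.42 and 1.72, while the fibrillar collagen Col3a1 had the opposite order. Sp110, an interferon-induced nuclear body protein, was 36.52 and 33.31 against 7.33 and 7.56 (4.41-fold), and Mospd3 was 72.80 and 55.18 against 12.03 and 14.13 (3.91-fold). Aldoart1 (4.32-fold) and Ttbk2 (3.91-fold), described above, ranked between Sp110 and Mospd3.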
